A study of Mus musculus with 2 samples.

Results

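The 9 genes described here act in the transport and the breakdown of heme: 6 encode proteins that move heme or its porphyrin precursors across membranes (Abcb10, Abcb6, Tmem14c, Flvcr1, Flvcr2 and Slc48a1), and 3 encode enzymes that break heme down (Hmox2, Blvra and Blvrb). They were chosen by gene symbol, with earlier results of these data known, and make up 9 of the 55536 mouse genes in the deposited table. Both libraries come from G1E-ER4 cells, an erythroid line grown out of mouse embryonic stem cells that lack Gata1; it carries GATA1 fused to a ligand-binding domain of the estrogen receptor, so that estradiol switches GATA1 function on. The cells were exposed to 17beta-estradiol at 10 nM for 24 h before polyadenylated RNA was sequenced. The 2 libraries, replicates 1 and 2, form 1 group without an untreated control, and both cite 1 biosample, so nothing in the labels says that they came from separate cultures. Levels, transcripts and the spread between the 2 libraries can therefore be described, while an effect of estradiol cannot be tested.

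Red cell precursors make large amounts of heme for hemoglobin. The last steps take place in the mitochondrion: the porphyrin precursor enters it, ferrochelatase inserts iron, and finished heme leaves for hemoglobin in the cytosol. Free heme is toxic, so cells also export it, recover it from endosomes and lysosomes, or open its ring with heme oxygenase, which yields biliverdin that biliverdin reductases turn into bilirubin.

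For Blvrb and Flvcr1 in both libraries, and for Slc48a1 in replicate 2, part of the RNA was placed on a transcript that does not encode the full protein. By the alignment with GENCODE M21 that transcript held 26% or more of the gene's TPM. For Blvrb-202 in replicate 1 the share was 22.8% from the reads and 0.446% with the older M4 annotation. For Blvrb and Slc48a1 the stretches where those transcripts depart from the full-length ones are shown so that the values given for them can be read. Transcript stretches are from GENCODE M21 on mm10, 5′ to 3′. Blvrb has 2 alternative starts that lie 4440 bases apart. The coding bases of its upstream first exon (chr7:27448118-27448196, plus strand) are present only in transcripts from the upstream start, and the coding part of Blvrb-202, from the internal start, opens further along (chr7:27459577-27459606, plus strand), at a codon that Blvrb-201 reads as an internal one. Capitals mark the start codon in both.
Blvrb-201 first-exon coding bases: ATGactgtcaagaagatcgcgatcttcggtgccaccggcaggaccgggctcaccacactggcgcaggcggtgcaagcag
Blvrb-202 first coding bases: ATGtccgagggcacccggaacatcgtgaca

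Flvcr1-202 is a single exon that runs past the end of exon 1 for 468 bases into the intron, so that its coding part shares 239 codons with the full-length Flvcr1-201 and then stops early. Slc48a1-202, annotated as a target of nonsense-mediated decay, holds a cassette exon of 154 bases (chr15:97786802-97786955, plus strand) that the full-length Slc48a1-201 skips. That length is not a multiple of 3, and the reading frame meets a stop codon inside the exon. The bases from the start of the exon to that stop codon (chr15:97786802-97786848) are shown, with the stop codon in capitals.
Slc48a1-202: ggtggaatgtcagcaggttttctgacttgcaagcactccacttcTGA

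The depth was unequal: replicate 1 held 71485617 expected counts in all and replicate 2 held 14121747, a ratio of 5.06. All 8 erythroid markers examined, among them Gata1, Klf1, the globin genes Hba-a1 and Hbb-bs and the band 3 gene Slc4a1, were at 1 TPM or more in both libraries. None of the 4 macrophage, 2 mast cell or 2 liver markers was, and 2 of the 3 megakaryocyte markers were: Gp1ba at 16.5 and 28.8 TPM and Itga2b at 3.17 and 2.96 TPM in replicates 1 and 2, with the megakaryocyte gene Pf4 at 0 counts. Of the erythroid markers, Gata1 says nothing of cell type here, since the line lacks its own Gata1 and carries the introduced GATA1 fusion. In bulk RNA, fewer cells that express a gene and less of its RNA per cell cannot be told apart. TPM is a level scaled to transcript length and library total, so it is used wherever genes are compared with each other.

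Of the 9 genes, 6 were at 1 TPM or more in both libraries, against 33.1% of the 22028 protein-coding genes. Blvrb, Tmem14c and Abcb10 stood at 100 TPM or more in both, a level that 3.59% of the protein-coding genes reached. The levels of the genes with counts spanned more than 3 orders of magnitude, with a median over the 9 genes of 58.0 TPM (replicate 1) and 79.8 TPM (replicate 2). The detected protein-coding genes had medians of 20.2 and 15.2 TPM. Because the 9 genes were chosen with earlier results known, these background values serve as description only. Blvrb alone gave 69.9% and 65.6% of the summed TPM of the 9 genes.

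**Figure D1:**
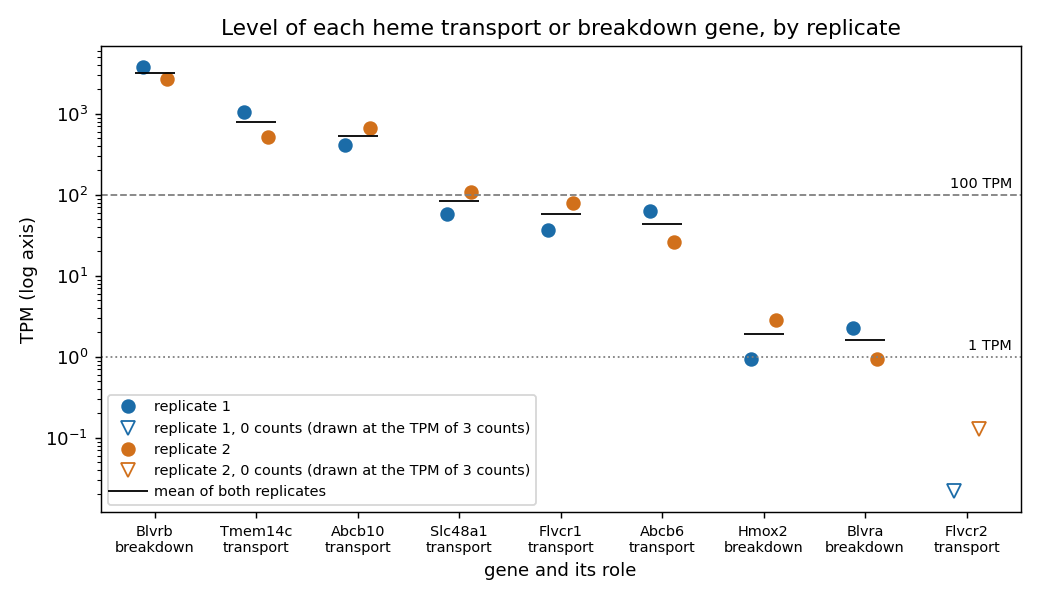
TPM of each of the 9 genes (y, log axis) in replicate 1 (blue) and replicate 2 (orange), ordered by mean level, with the mean of both libraries as a bar and open triangles for 0 counts, drawn at the TPM that 3 counts would give. Blvrb stands above all others in both libraries, Tmem14c and Abcb10 change places between libraries, and Flvcr2 had no counts.

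The mitochondrial transport genes Tmem14c and Abcb10 were the most abundant of the transporters. Gene positions are those of GENCODE M21 on mm10. Tmem14c (chr13:41016292-41022586, plus strand) encodes a small inner membrane protein that erythroid cells need to bring the last porphyrin precursor into the matrix. Its level was 1053 TPM in replicate 1 and 519.6 TPM in replicate 2, or 786 ± 377 TPM (SD, n = 2). Abcb10 (chr8:123952459-123983122, minus strand) encodes an ABC transporter of the mitochondrial inner membrane that hemoglobin synthesis depends on and that binds the iron carrier mitoferrin. Its level was 408 TPM in replicate 1 and 659 TPM in replicate 2, or 533 ± 177 TPM (SD, n = 2). Tmem14c was the higher of the pair in replicate 1 and the lower in replicate 2, with a Tmem14c to Abcb10 TPM ratio of 2.58 and 0.789, so by the alignment their order does not hold beyond the spread between libraries. From the reads this ratio was 2.41 and 1.15, with Tmem14c the higher in both. The level of Abcb10 lay near that of Fech, the ferrochelatase gene: the Abcb10 to Fech TPM ratio was 0.984 in replicate 1 and 1.32 in replicate 2. Abcb10 and Tmem14c each have 1 annotated transcript, so no share had to be divided between transcripts.

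Abcb6 (chr1:75171717-75180392, minus strand), the ABC transporter of porphyrins that has been placed at the mitochondrial outer membrane and the plasma membrane, was the least abundant of the detected transporters by mean. Its level was 62.2 TPM in replicate 1 and 26.1 TPM in replicate 2, or 44.2 ± 25.5 TPM (SD, n = 2). Both values lay below both values of Abcb10, with an Abcb10 to Abcb6 TPM ratio of 6.56 in replicate 1 and 25.2 in replicate 2. The table made from the reads gave Abcb6 41.5 and 1.95 TPM in replicates 1 and 2, and there the ratio was 7.23 and 57.5. How many reads belong to Abcb6 is uncertain, because the annotation holds Gm29253, a processed transcript on the same strand that runs from Abcb6 into the neighbouring gene Atg9a. Of all words of 31 bases in Abcb6-201, the leading transcript, 91.7% also occur in Gm29253. The listed level of Gm29253 was 55.1 TPM in the first library and 80.7 TPM in the other, so it was the lower of the pair in one library and the higher in the other. The summed level of Abcb6 and Gm29253 was 117 TPM in replicate 1 and 107 TPM in replicate 2, or 112 ± 7.42 TPM (SD, n = 2), a smaller spread than that of Abcb6 alone. In the table made from the reads the sum was 67.7 TPM in replicate 1 and 15.4 TPM in replicate 2, so the near-equal sum was not found there. Whether the division between the 2 genes sets the spread of Abcb6 was not tested.

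Flvcr1 (chr1:191005847-191026158, minus strand) and Flvcr2 (chr12:85746539-85813585, plus strand) are paralogs of the major facilitator superfamily. Flvcr1 was described as a heme exporter of the plasma membrane that red cell precursors need, and both have since been described as choline transporters. The level of Flvcr1 was 36.3 TPM in replicate 1 and 79.8 TPM in replicate 2, or 58.1 ± 30.8 TPM (SD, n = 2). Flvcr2 had 0 counts in both libraries, and 3 counts, taken as a floor, would have been 0.0219 TPM in replicate 1 and 0.127 TPM in replicate 2. Against that floor, taken in each library, Flvcr1 was 1656-fold higher in replicate 1 and 627-fold higher in replicate 2. These ratios are no firm bounds. The authors' intervals for Flvcr2 reached up to 0.0883 TPM in replicate 1 and 0.47 TPM in replicate 2, which would give smaller ratios. With posterior mean TPM the smaller of the 2 ratios was 440. The paralogs thus stood far apart in both libraries, and the shallower library gave the smaller ratio.

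The RNA assigned to Flvcr1 lay mostly on the short Flvcr1-202 described above. That transcript held 32.15 of 36.3 TPM in replicate 1 and 72.5 of 79.8 TPM in replicate 2, a share of 88.5% and 90.8%. Flvcr1-201, the 10-exon transcript that encodes the whole transporter of 560 codons, stood at 3.64 TPM in replicate 1 and at 3.28 TPM in replicate 2, with a mean of 3.46 ± 0.255 TPM (SD, n = 2). Its share was 10.0% in replicate 1 and 4.11% in replicate 2. By the alignment the full-length transcript was thus nearly the same in both libraries, while the gene's level differed by a ratio of 2.20 between replicate 2 and replicate 1. In the table made from the reads Flvcr1-201 stood at 2.55 and 1.06 TPM and the gene at 27.7 and 17.6 TPM. Both were lower there in replicate 2, but so was the median gene of that table, at a log2(TPM + 1) ratio of -1.30. The gene, at a ratio of 0.637, fell less than that median gene. As a share of expected counts, which favour long transcripts, Flvcr1-202 held 68.1% and 74.3%, and in the table made directly from the reads it held 89.5% and 92.8% of the TPM. The antisense gene A230020J21Rik overlaps the start of Flvcr1 and shares 62.8% of the 31-base words of Flvcr1-202, and it was listed at 5 counts in replicate 1 and 1 count in replicate 2, beside 2480 and 972 counts for Flvcr1-202.

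Slc48a1 (chr15:97778520-97792692, plus strand) encodes the heme transporter HRG1, which carries heme out of endosomes and lysosomes into the cytosol. Its level was 58.0 TPM in replicate 1 and 109 TPM in replicate 2, or 83.3 ± 35.8 TPM (SD, n = 2). Slc48a1 lay above Flvcr1 in both libraries, at 58.0 against 36.3 TPM in replicate 1 and 109 against 79.8 TPM in replicate 2. Slc48a1 was also above Flvcr1 in both libraries from the reads. Across libraries the values of Slc48a1, Flvcr1 and Abcb6 interleave. Abcb6 was the highest of these 3 genes in replicate 1, at 62.2 TPM, and the lowest in replicate 2, at 26.1 TPM. By the alignment the place of Abcb6 among them thus does not hold beyond the spread between libraries. The full-length Slc48a1-201 stood at 57.7 TPM and 66.55 TPM in replicates 1 and 2, or 62.1 ± 6.24 TPM (SD, n = 2). By the alignment most of the difference in the gene's level between libraries lay instead on Slc48a1-202, the transcript with the cassette exon. It was at 0.13 TPM from 2.41 expected counts in replicate 1 and at 40.8 TPM from 138 expected counts in replicate 2. It held 0.224% and 37.6% of the gene's TPM but 0.0241% and 6.50% of its expected counts, since its 404 bases give few counts per transcript. The authors' intervals for its TPM were 0.0217 to 0.425 in replicate 1 and 25.9 to 51.5 in replicate 2, and do not overlap. In the table made from the reads it had 30.3 counts in replicate 1 and 738 counts in replicate 2, so the higher value of this transcript in the shallower library was found in both tables. The full-length form stood at 41.6 and 12.7 TPM and the gene at 42.7 and 36.6 TPM in that table. Both were lower there in replicate 2, but so was the median gene of that table, at a log2(TPM + 1) ratio of -1.30.

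Of the breakdown genes, Blvrb had the highest TPM of all 9 genes when all transcripts are summed, while Hmox2 and Blvra had the lowest of those with counts. Hmox2 (chr16:4726361-4766742, plus strand) encodes the constitutive heme oxygenase, the enzyme that opens the heme ring. Its level was 0.94 TPM in replicate 1, from 96 counts, and 2.84 TPM in replicate 2, from 19 counts, or 1.89 ± 1.34 TPM (SD, n = 2). Blvra (chr2:127070665-127097084, plus strand) encodes biliverdin reductase A, which reduces the biliverdin isomer that heme oxygenase makes in adults. Its level was 2.27 TPM in replicate 1, from 166 counts, and 0.94 TPM in replicate 2, from 12 counts, or 1.60 ± 0.940 TPM (SD, n = 2). Hmox2 and Blvra change places between the libraries, and each was under 1 TPM in one of them. The inducible heme oxygenase gene Hmox1, named after its values were seen reached 45.7 TPM in the first of these libraries and 27.4 TPM in the other.

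Blvrb (chr7:27447978-27466144, plus strand) encodes biliverdin reductase B, also known as flavin reductase, an abundant red cell enzyme that reduces flavins and the beta isomer of biliverdin. Its level was 3769 TPM in replicate 1 and 2667 TPM in replicate 2, or 3218 ± 780 TPM (SD, n = 2). Among the protein-coding genes it ranked 18 in replicate 1 and 49 in replicate 2. The 2 reductases were thus far apart: the Blvrb to Blvra TPM ratio was 1660 in replicate 1 and 2837 in replicate 2. The exact Poisson interval of the Blvra count alone, at 95%, puts this ratio between 1426 and 1945 in replicate 1 and between 1624 and 5490 in replicate 2, which overlap. Such intervals cover counting error only and leave out the error of assigning reads to genes. The reads also carry no molecular identifiers.

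The estimated shares of the 2 Blvrb starts differed between the 2 libraries, while the use of the starts was not measured directly. Transcripts from the upstream start summed to 2781 TPM in replicate 1 and 949 TPM in replicate 2, and those from the internal start to 988 TPM in replicate 1 and 1717 TPM in replicate 2. The internal start thus held 26.2% of the gene's TPM in replicate 1 and 64.4% in replicate 2. Nearly all of it was Blvrb-202, whose 120 codons lack the 86 codons that open the 206 codons of Blvrb-201. Blvrb-201, the full-length form, held 50.4% of the TPM in replicate 1 and 8.56% in replicate 2. Its own level was 1898 TPM in replicate 1 and 228 TPM in replicate 2, where it lay below both Abcb10 and Tmem14c. Blvrb-203, with 247 codons, held 11.9% and 25.1%, and Blvrb-204, with 126 codons, held 10.9% and 1.56%. In the table made from the reads the internal start held 22.9% and 47.8%, so the upstream start led there in both libraries, at 77.1% and 52.2%. In the tables for the older M4 annotation the internal start held 0.556% and 65.5%. The share of the internal start was higher in replicate 2 in all 3 sources, while its value in replicate 1 depended on the annotation and the leading start in replicate 2 on the table.

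**Figure D2:**
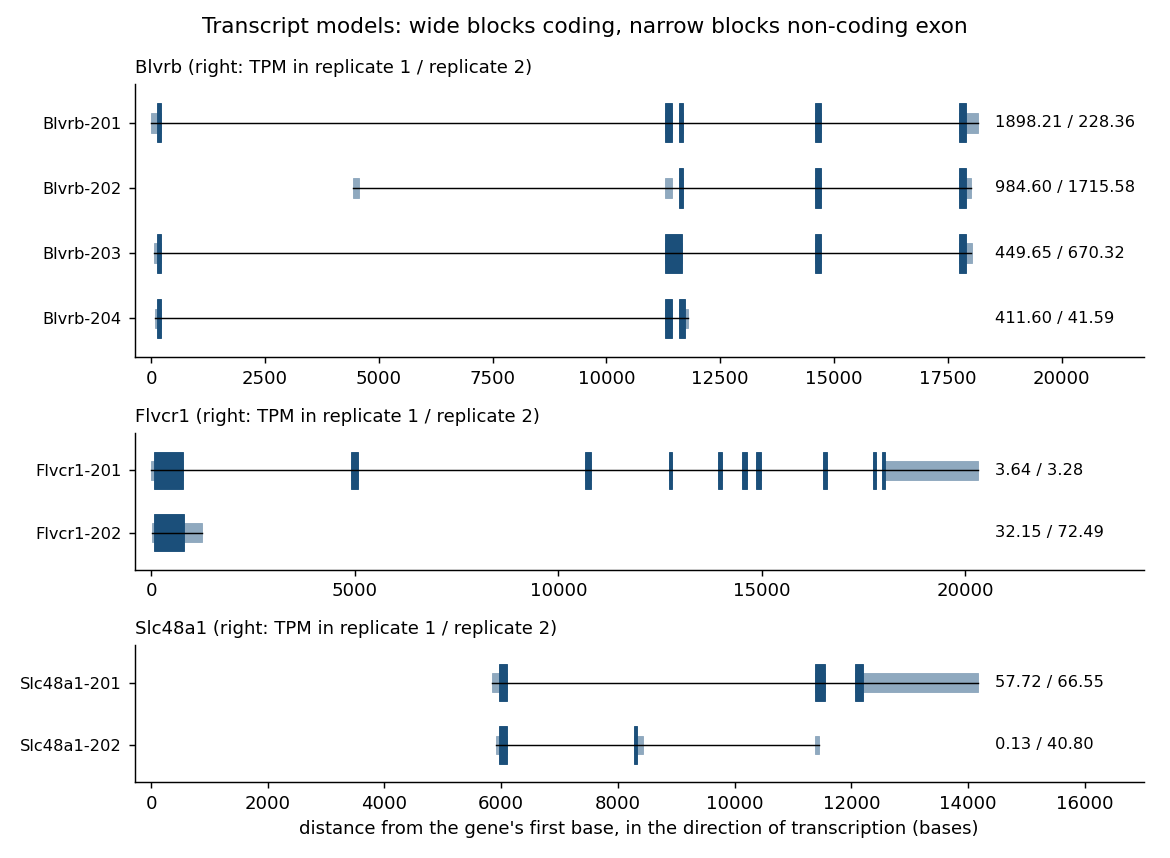
Exons of the leading and the full-length transcripts of Blvrb, Flvcr1 and Slc48a1 against the distance from the first base of each gene in bases (x), with coding parts as wide blocks and the TPM in replicates 1 and 2 at the right. Blvrb-202 starts 4440 bases after the gene's first base, Flvcr1-202 ends within the first intron, and Slc48a1-202 carries the cassette exon and stood at 0.13 and 40.80 TPM.

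The 250 bases before each of the 2 Blvrb starts are shown because the estimated shares of the starts differ between the libraries. They are from RefSeq on GRCm38.p6, plus strand, with GATA hexamers in capitals, where a GATA hexamer is AGATAA, or the same with thymine as its first base, guanine as its last base or both, on either strand.
Blvrb upstream start, chr7:27447728-27447977: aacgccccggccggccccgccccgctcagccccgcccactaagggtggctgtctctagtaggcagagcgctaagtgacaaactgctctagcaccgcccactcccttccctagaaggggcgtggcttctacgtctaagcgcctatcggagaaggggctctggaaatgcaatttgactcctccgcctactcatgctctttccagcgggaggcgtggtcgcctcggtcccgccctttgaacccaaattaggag
Blvrb internal start, chr7:27452168-27452417: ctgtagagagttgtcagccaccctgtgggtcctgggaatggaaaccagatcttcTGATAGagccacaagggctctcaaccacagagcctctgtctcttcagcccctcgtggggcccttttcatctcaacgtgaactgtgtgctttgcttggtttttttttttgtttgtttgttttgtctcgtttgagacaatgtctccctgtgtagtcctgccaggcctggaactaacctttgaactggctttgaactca

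The stretch before the upstream start held 62.0% G and C and no GATA hexamer, and the stretch before the internal start held 48.8% G and C and 1 GATA hexamer, which begins 196 bases before the start. A GATA hexamer was found in 26.5% of the 32851 promoters of the same length, so 1 match is common. RefSeq promoter entries were matched for 8 of the 9 genes. Besides the internal Blvrb start, 1 of the 3 Hmox2 starts held GATA hexamers, 2 of them, and none of the other entries held one. These matches describe the letters of these windows and say nothing of binding.

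**Figure D3:**
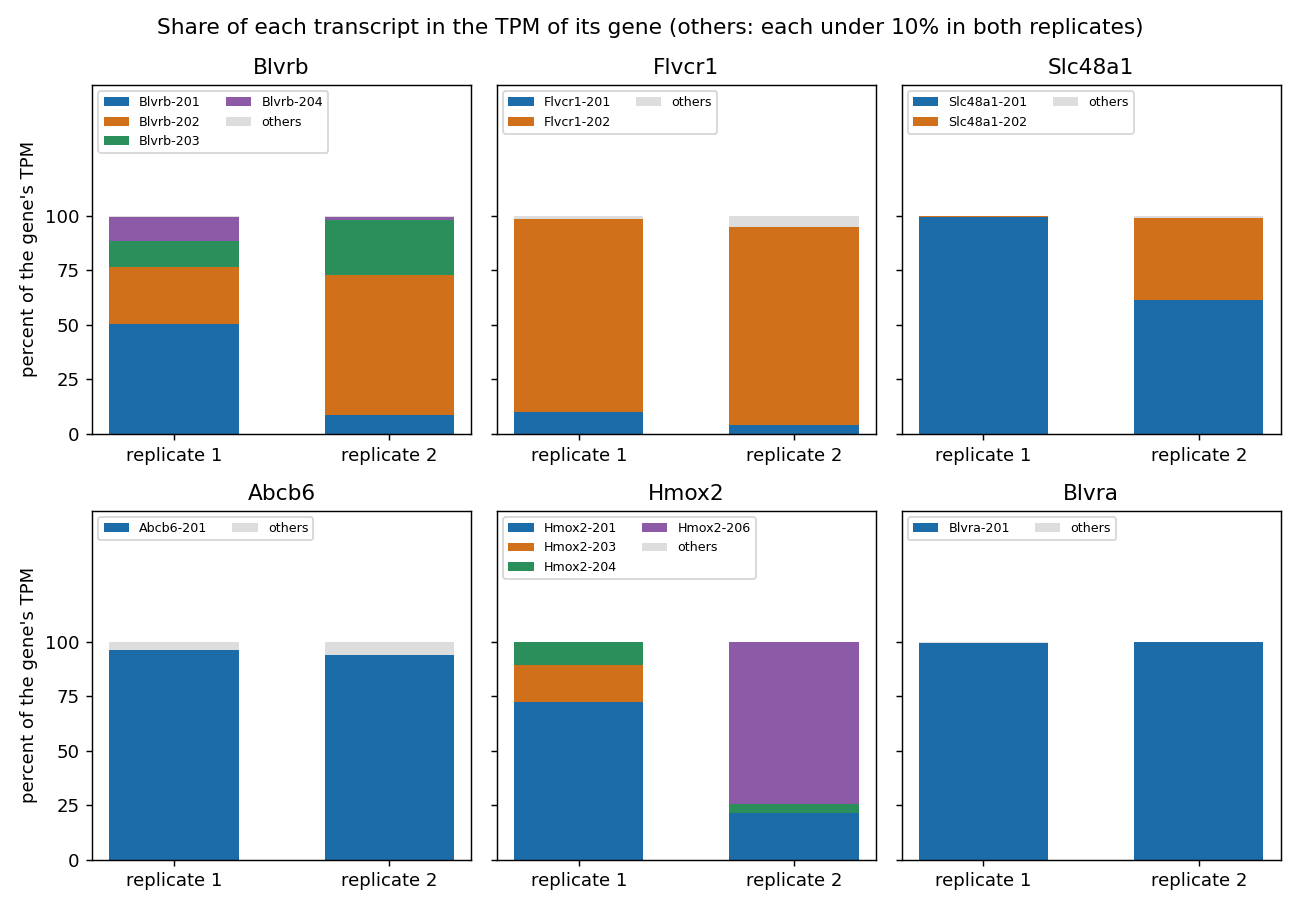
Percent of each gene's TPM held by each transcript (y) in replicates 1 and 2 (x) for the 6 genes with more than 1 annotated transcript and counts, with transcripts under 10% in both libraries in grey. Blvrb and Hmox2 have a different leading transcript in each library, while Flvcr1-202 holds 88.5% and 90.8% of Flvcr1.

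The leading transcript by TPM differed between the libraries for 2 of the 6 genes with several transcripts and counts, Blvrb and Hmox2. Over all 7832 protein-coding genes with several transcripts and a mean count of 50 or more it differed for 37.2%, so such a change was common in these libraries. Hmox2-201 held 72.3% of the Hmox2 TPM in replicate 1 and 21.5% in replicate 2, where the short Hmox2-206, at 0 in replicate 1, held 74.7% from 5.86 expected counts. Hmox2-203 held 17.0% and 0%, and Hmox2-204 held 10.6% and 3.87%, all from fewer than 14 expected counts. Abcb6-201 held 96.1% and 93.8% of its gene, and Blvra-201 held 99.6% and 100%. From the reads Abcb6-201 held 95.75% in replicate 1 and 81.6% in replicate 2. By posterior mean TPM Blvra-201 held 95.73% in replicate 1 and 55.63% in replicate 2, where it had 12 counts.

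The counts of Hmox2 differed between the deposited tables more than those of the other genes. The table made from the reads gave Hmox2 1325 counts in replicate 1 and 273 counts in replicate 2, which is 13.8 and 14.4 times the expected counts from the alignment. Over all genes compared, the median of this ratio was 1.41 in replicate 1 and 2.53 in replicate 2, and it passed 10 in both libraries for 0.259% of 8893 genes. The other 7 genes with counts lay between 0.623 and 3.42. In that table the level of Hmox2 was 9.47 TPM in replicate 1 and 2.49 TPM in replicate 2, beside 0.94 and 2.84 TPM from the alignment. The close TPM values in replicate 2 do not mean that the tables match, because the counts still differed 14.4 times. The other 7 genes with counts all had lower TPM from the reads in that library, such as Blvrb at 625 against 2667 TPM. The gene Cdip1 lies on the opposite strand over 16395 bases of Hmox2, and 49.4% of the 31-base words of Hmox2-201 also occur in Cdip1 transcripts. Cdip1 had 2638 and 494 expected counts, and 3078 and 743 counts in the table made from the reads. No source used here states if the counting was strand-aware, and the part of this overlap in the Hmox2 values was not tested. The Hmox1 to Hmox2 TPM ratio was 48.6 in replicate 1 and 9.67 in replicate 2 from the alignment, and 2.77 and 1.67 from the reads.

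**Figure D4:**
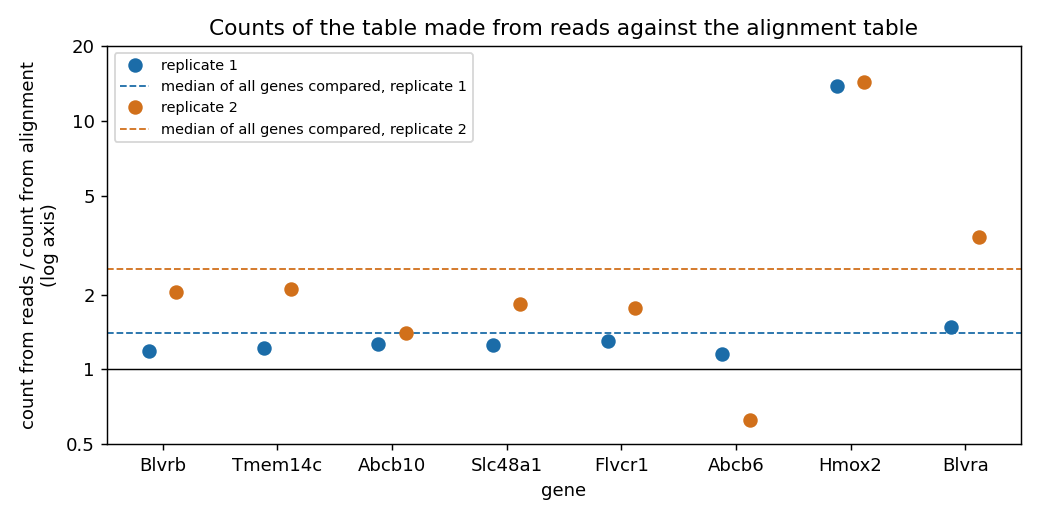
Count in the table made from the reads over the expected count from the alignment (y, log axis) for the 8 genes with counts, in replicate 1 (blue) and replicate 2 (orange), with dashed lines at the medians of all genes compared, 1.41 and 2.53. Hmox2 stands at 13.8 and 14.4, and Abcb6 is the one gene below 1, at 0.623 in replicate 2.

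Of the 8 genes with a mean count of 50 or more, Flvcr1 and Hmox2 were over 2-fold higher in replicate 2 by TPM, with TPM ratios of 2.20 and 3.02. Tmem14c, Abcb6 and Blvra were over 2-fold lower in replicate 2, with TPM ratios of 0.493, 0.420 and 0.414. The background shares over the 9029 genes with such a count were 15.5% higher and 35.4% lower, so 2 of 8 higher and 3 of 8 lower lie near the background. The libraries as a whole were thus far from identical, and the median log2 TPM ratio of those genes was -0.39. Blvrb lay close to that median at a log2 ratio of -0.50. From the reads all 8 genes had lower TPM in replicate 2, Abcb10, Slc48a1, Flvcr1 and Hmox2 included. The median log2(TPM + 1) ratio over genes was itself -1.30 there, against -0.32 by the alignment. Beside those medians, Slc48a1 and Flvcr1, at 0.857 and 0.637 from the reads, lay above the median gene in either table. Abcb10 and Hmox2, at 0.374 and 0.263 from the reads, lay below it there and above it by the alignment.

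CPM, the count scaled to the library total only, leaves transcript length out of the ratio, and on this scale none of the 8 genes was over 2-fold higher in replicate 2, where the background was 9.67%. Tmem14c, Abcb6 and Blvra were again over 2-fold lower, where the background was 41.3%. With the scaling factors of TMM or DESeq2, Flvcr1 was over 2-fold higher, at ratios of 2.32 and 2.45, and Tmem14c was no longer over 2-fold lower, at 0.560 and 0.591. Slc48a1 had a CPM ratio of 1.08, which the exact binomial interval at 95% put between 1.03 and 1.13, beside a TPM ratio of 1.87. Hmox2 had a CPM ratio of 1.00 with an interval of 0.578 to 1.65, beside a TPM ratio of 3.02. For these 2 genes the effective length differed between libraries, at 2375 and 1585 bases for Slc48a1 and at 1411 and 541 bases for Hmox2, beside the different transcript shares given above. Blvra had a CPM ratio of 0.366 with an interval of 0.185 to 0.657, so its 12 counts in replicate 2 leave a 2-fold difference undecided.

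**Figure D5:**
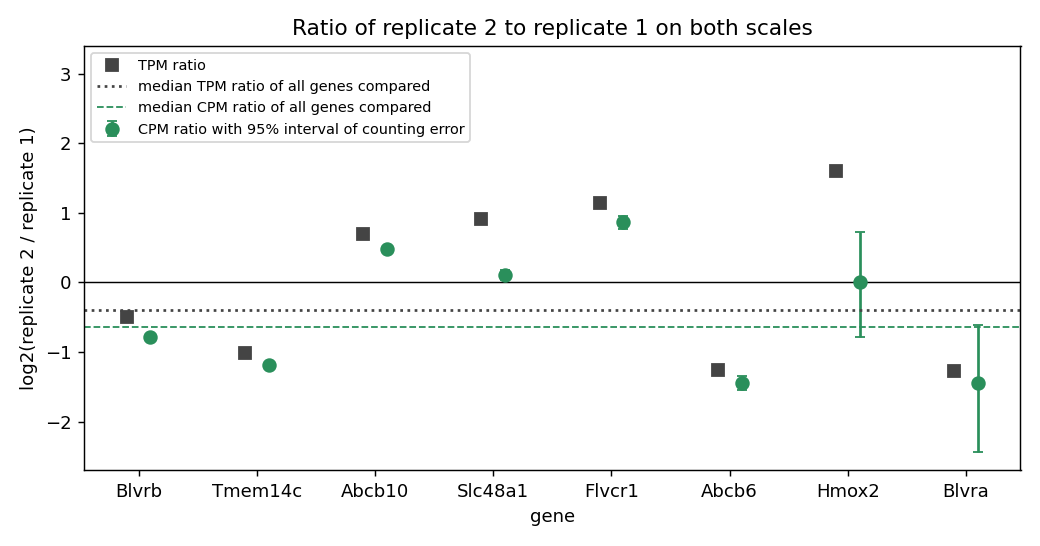
Log2 ratio of replicate 2 to replicate 1 (y) for the 8 genes with counts, in TPM (squares) and in CPM (circles, with the 95% interval of counting error), with the medians of all genes compared as dotted (TPM) and dashed (CPM) lines. The 2 scales are farthest apart for Hmox2 and Slc48a1, whose CPM ratios are 1.00 and 1.08.

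The genes around these 9 in the heme pathway were taken from lists drawn up with earlier results known. All 8 heme synthesis genes examined were detected at 1 TPM or more in both libraries, with a median level of 235 TPM (replicate 1) and 103 TPM (replicate 2). At a mean of 100 TPM or more were Alad at 798 ± 605 TPM, Fech at 458 ± 60.7 TPM, Cpox at 223 ± 122 TPM, Alas2, the erythroid form of the rate-limiting enzyme, at 186 ± 166 TPM and Ppox at 174 ± 10.8 TPM (SD, n = 2). The mean levels of Abcb10 and Tmem14c fell within the range of these 5 enzymes, whose upper end is set by Alad in replicate 1, while in replicate 2 both genes stood above all 5. All 8 genes for other mitochondrial carriers and partners were detected. Among them Slc25a39, a glutathione carrier, was at 582 ± 309 TPM, the iron carrier mitoferrin, Slc25a37, at 264 ± 110 TPM and the glycine carrier Slc25a38 at 142 ± 9.60 TPM (SD, n = 2).

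All 4 genes listed for heme oxygenase 1 and electron supply were detected. Por, the reductase that feeds heme oxygenase, was at 131 and 480 TPM. The cytochrome b5 reductase gene Cyb5r3 was at 123 and 102 TPM. None of the 6 genes for the disposal of bilirubin had a count, among them Ugt1a1, which conjugates bilirubin, and the export pump Abcc2. None of the 5 genes for scavenging hemoglobin and heme from plasma was detected, with Cd163, the hemoglobin receptor of macrophages, at 0 counts. Of 8 genes for heme sensors and their partner factors 5 were detected. Among them the small MAF partner genes Mafk and Mafg were at 169 ± 47.2 TPM and 164 ± 90.1 TPM (SD, n = 2). Eif2ak1, the heme-regulated kinase of translation, was at 115 ± 14.0 TPM (SD, n = 2). Of 6 further heme and porphyrin transporters 5 were detected, with no mean above 100 TPM. Of the 6 family relatives that could be matched 2 were detected, again with no mean above 100 TPM.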

How the data were processed

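Polyadenylated RNA from 2 libraries of 1 group was measured. Per the deposited descriptions, reads were placed on mm10, and each library has gene and transcript tables for GENCODE M21 and M4 made from an alignment, plus an M21 transcript table computed from reads. For the aligner, the quantifiers and the use of strand, the sources used here name nothing; the headers follow RSEM and kallisto. The deposited expected counts are the authors' estimates, not normalized. The authors' TPM, per the file headers, is given as a maximum likelihood and a posterior mean estimate. The deposited interval bounds are a signal on the TPM scale of unstated level.

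The M21 gene table was the main source. All 55536 mouse genes matched the GENCODE M21 annotation, 26345 other entries held 4.20e-06% and 0% of the counts, and the table made from reads was summed per gene for 55450 genes. The members and the lists of related genes were chosen with earlier results of these data known. Every member is named, with its transcripts of 10% or more of TPM in either library, related genes at a mean of 100 TPM or more and at most 3 related genes per list at 0 counts. Detection meant 1 TPM or more in both libraries, and ratios between libraries were counted for genes with a mean count of 50 or more. Scaling factors for the alternatives came from edgeR 4.0.16 and DESeq2 1.42.0 in R 4.3.3 after expected counts were rounded; no test was run, since 1 group allows none. Intervals used scipy 1.17.1. Code that counts 2-fold differences was tested on simulated data. Replicate 1 is 5.06 times as deep as replicate 2, so low counts are more precise there. Some items of these genes and lists are not reported here.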

Additional observations from a re-analysis of the deposited data

How the results depend on the processing

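Leaving out replicate 1 or 2 gave 7 genes detected under either omission, 3 to 4 genes at 100 TPM or more and a median log2(TPM + 1) of 5.88 to 6.34. The Blvrb to Blvra ratio was 1660 to 2837, the Abcb10 to Abcb6 ratio 6.56 to 25.2, and the ratio of Flvcr1 to 3 counts of Flvcr2 was 627 to 1656. Leaving out 1 library moved the last 2 by over 1.5 times. The main median log2(TPM + 1) was 6.11, with a mean Blvrb to Blvra ratio of 2249 and a mean Abcb10 to Abcb6 ratio of 15.9. The table made from reads moved the median level to 4.81 and the median log2 ratio of replicate 2 to replicate 1 from 0 to -1.41 (all genes in that table: -1.30). It moved Blvrb to Blvra to 1403, Abcb10 to Abcb6 to 32.4 and the ratio of Flvcr1 to 3 counts of Flvcr2 to 1979. CPM, edgeR's TMM and DESeq2's size factors gave a median level of 6.84, which is no longer per length, and 3 genes over 2-fold apart in place of 5: all 3 lower in replicate 2 by CPM, and 1 higher (Flvcr1) and 2 lower (Abcb6 and Blvra) by the other scalings. An alternative chosen after seeing the data, counting only principal coding transcripts, gave a median level of 5.27 and a Blvrb to Blvra ratio of 541 (with Blvrb below Abcb10 and Tmem14c in replicate 2). It gave a ratio of Flvcr1 to 3 counts of Flvcr2 of 25.8. Apart from these, the causes of which were not tested, the M4 tables, posterior mean TPM, TPM over nuclear protein-coding genes, other thresholds (0.1 and 5 TPM), a pseudocount of 0.1 and other count filters left these values within the spread between libraries or, for counts, within 1.5 times. That spread is wide for Flvcr1 over Flvcr2, whose ratio fell to 440 with posterior mean TPM, where Flvcr2 has a value of its own. Depth limits Flvcr2, at 0 counts in both libraries, and Blvra and Hmox2, at 12 and 19 counts in replicate 2.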
